A study of Caenorhabditis elegans with 79 samples.

Results

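The genes oma-1 and oma-2 of Caenorhabditis elegans encode closely related RNA-binding proteins with CCCH zinc fingers, and the data described here are the small RNAs that match them. Every row whose feature name held oma-1 or oma-2 as a whole gene name was taken, in each of the 8 tables. That gave 26 of 156912 rows, of which 20 were oma-1 rows and 6 were oma-2 rows. A match on letters alone would have added moma-1, an unrelated gene, in each of the 6 tables that hold many small RNA classes. The rows came to 4 in L4 larvae, 6 in adults, and 6, 4 and 4 in GFP::RDE-1 animals under nrfl-1 and oma-1 RNAi, under nrfl-1 RNAi alone, and under dcr-1 or control RNAi. HA::ALG-1 animals gave 1 row (oma-2), GFP::ALG-3 animals gave 1 row (oma-1) and GFP::ERGO-1 animals gave 0.

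OMA-1 and OMA-2 act redundantly in the maturation of oocytes, where they bind the 3′ untranslated regions of maternal messages, and both proteins are removed early in embryogenesis. In RNA interference (RNAi) by feeding, worms eat bacteria that express double-stranded RNA (dsRNA). The nuclease Dicer, helped by the dsRNA-binding protein RDE-4, cuts it into primary siRNAs, which the Argonaute RDE-1 binds. RNA-dependent RNA polymerases then make secondary siRNAs, called 22G-RNAs for their usual length and first base, on the targeted message. The 23H rows hold the primary kind, H standing for a first base other than G. Worms also make 22G-RNAs against many of their own germline messages, among them the CSR-1 class, and 26G-RNAs that the Argonautes ALG-3 and ALG-4 use during sperm formation.

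The adults were rde-1(ne300), rde-4(syb6665) and wild-type N2 animals at 72 h, all fed bacteria for nrfl-1 and oma-1 RNAi, with 3 libraries each. The L4 larvae were rde-4(syb6665) and N2 animals at 54 h with no RNAi, with 3 libraries each. In the co-immunoprecipitation (co-IP) set for RDE-1, all animals carried the tagged allele rde-1(cmp133[(GFP::3xFLAG)::rde-1]), and those with rde-4(syb6665) in addition, called the mutant, were compared with those without it, called the wild type. Co-IP and input each had 2 libraries per strain under nrfl-1 and oma-1 RNAi and 3 under nrfl-1 RNAi alone. In the dcr-1 set, dcr-1 RNAi was compared with L4440, the empty feeding vector, with 3 libraries per group, and all of its animals carried rde-4(cmp320[rde-4::2xFLAG]) besides the tagged rde-1. HA::ALG-1 animals under nrfl-1 RNAi carried unc-119(ed3) and the transgene ram4, an HA-tagged alg-1 with a Cbr-unc-119(+) marker, with or without rde-4(syb6665), 3 libraries per group. GFP::ALG-3 animals carried alg-3(tor141[GFP::3xFLAG::alg-3]), with or without rde-4(syb6665), and had no RNAi, with 2 libraries per group. So oma-1 dsRNA was given in the adults and in 1 RDE-1 set, and oma-2 dsRNA in none. RNA came from whole animals grown at 20 °C on Escherichia coli, so fewer germ cells and less RNA per germ cell cannot be told apart. No label says that replicates were separate cultures, so p-values measure the spread between libraries, which may be technical.

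Values are RPM, reads scaled to the depth of the library, and libraries of different tables were set side by side without a test. Where depth could be read from the steps of the piRNA rows, in 58 of 59 libraries of the many-class tables, it was 12.3 to 37.2 M reads, and 3 reads were worth 0.081 to 0.244 RPM. RppH, an enzyme that makes 22G-RNAs open to cloning, was used, per the labels, for the L4 larvae, the adults and the RDE-1 set with oma-1 RNAi, and is not named for the other libraries. The summed 3p strands of mir-35 to mir-42, miRNAs of oocytes and embryos, fitted the stage labels. They came to 26057 to 26962 RPM in rde-1 adults, 13838 to 14440 RPM in rde-4 adults and 28700 to 30915 RPM in N2 adults, against 961 to 1421 RPM in all L4 larvae. The miRNAs let-7-5p and lin-4-5p went the other way. On average let-7-5p held 7587 RPM in N2 larvae and 1716 RPM in N2 adults, and lin-4-5p 2983 and 657 RPM. What these miRNAs say about stage was not tested.

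By the Ensembl annotation of the WBcel235 assembly, oma-1 (WBGene00003864) lies on the plus strand of chromosome IV at 8888976 to 8890999, and oma-2 (WBGene00003865) on the plus strand of chromosome V at 8029439 to 8031214. The genes are built alike, with 6 exons and 1 annotated transcript each. The oma-1 transcript has 1801 nt, of which 1224 nt are coding, and gives 407 amino acids. The oma-2 transcript has 1546 nt, of which 1182 nt are coding, and gives 393 amino acids. The oma-1 message has the longer 3′ untranslated region, with 467 nt against 294 nt in oma-2. No other gene overlaps either of them. The nearest neighbours on the same strand are C09G9.5 and spr-2 for oma-1 and F43H9.4 and vars-1 for oma-2.

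In adults fed oma-1 dsRNA, 22G-RNAs of oma-1 were high only where both RDE-1 and RDE-4 were present, and those of its paralogue were not. The fed-target row of oma-1 22G-RNAs held 13.8, 11.8 and 10.9 RPM in rde-1 adults, 13.4, 11.3 and 14.3 RPM in rde-4 adults, and 533, 507 and 547 RPM in N2 adults. The CSR Class row of oma-1 held 5.39, 4.52 and 4.78 RPM in rde-1 adults, 3.73, 4.97 and 4.59 RPM in rde-4 adults, and 159, 149 and 160 RPM in N2 adults. The mutants stood far below N2 in both rows, and the mutants overlapped each other.

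The row of oma-2 behaved otherwise. It held 16.1, 14.0 and 12.9 RPM in rde-1 adults, 16.2, 17.4 and 14.1 RPM in rde-4 adults, and 13.2, 11.3 and 12.7 RPM in N2 adults. Every rde-4 library was above every N2 library, while rde-1 and N2 overlapped.

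Rows that averaged 10 RPM or more, 5450 of them in adults, were tested with limma on log2(RPM + 1), with Benjamini-Hochberg (BH) adjustment and a call at an adjusted p under 0.05. In rde-1 against N2 adults, 15.5% of all features were called (7.52% higher and 7.96% lower). Of the 5 rows of these genes that were tested, 1 was higher (oma-1 23H), 3 were lower and 1 was not called, and 2 of the 3 lower rows are copies of each other. The CSR Class row of oma-1 fell by 4.74 ± 0.09 (log2, SE) in rde-1 adults (limma, BH-adjusted p = 1.53e-10), with its fed-target 22G row lower by a log2 difference of -5.34 ± 0.09 (9.11e-11). The oma-2 row differed by 0.20 ± 0.10 (limma, BH-adjusted p = 0.239), which did not pass. A p above the threshold does not show that its level was the same.

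In rde-4 against N2 adults, 34.1% of all features were called (28% higher and 6.17% lower), and of the same 5 rows 1 was higher and 4 were lower. The lower rows include the CSR Class row of oma-1 and its copy. The features counted 1524 higher and 336 lower in RPM, but 262 higher and 512 lower with median-of-ratios scaling, where the median of all features was 0.11 in RPM. The CSR Class row of oma-1 fell by 4.86 ± 0.09 (limma, BH-adjusted p = 2.15e-11) and its fed-target 22G row by 5.25 ± 0.09 (1.66e-11). The oma-2 row was the one called higher, by 0.33 ± 0.10 (limma, BH-adjusted p = 0.0288). The median CSR Class row was higher by 0.15 in rde-4 adults, and with median-of-ratios scaling the oma-2 difference was 0.23 with an adjusted p of 0.183 (limma). The oma-2 call was also lost without N2 replicate 2 (0.28, adjusted p = 0.0915), without rde-4 replicate 1 (0.32, 0.0707) and without rde-4 replicate 2 (0.27, 0.0868). The mir-35 family was lowest in the same rde-4 libraries, and its part in the oma-2 difference was not tested.

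Between the mutants, 30.5% of features were called in rde-4 against rde-1 adults (22.3% higher and 8.24% lower, against 474 higher and 676 lower features with that scaling). Of the 5 rows 1 was called, the 23H row of oma-1, lower by -2.11 ± 0.12 (limma, BH-adjusted p = 1.87e-07). The oma-1 CSR Class row differed by -0.12 ± 0.09 (limma, BH-adjusted p = 0.322) and the oma-2 row by 0.14 ± 0.10 (0.305). In each comparison of adults that oma-1 row passed the minimum of 10 RPM only through N2. It averaged 4.90 RPM in rde-1 and 4.43 RPM in rde-4 adults.

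**Figure D1:**
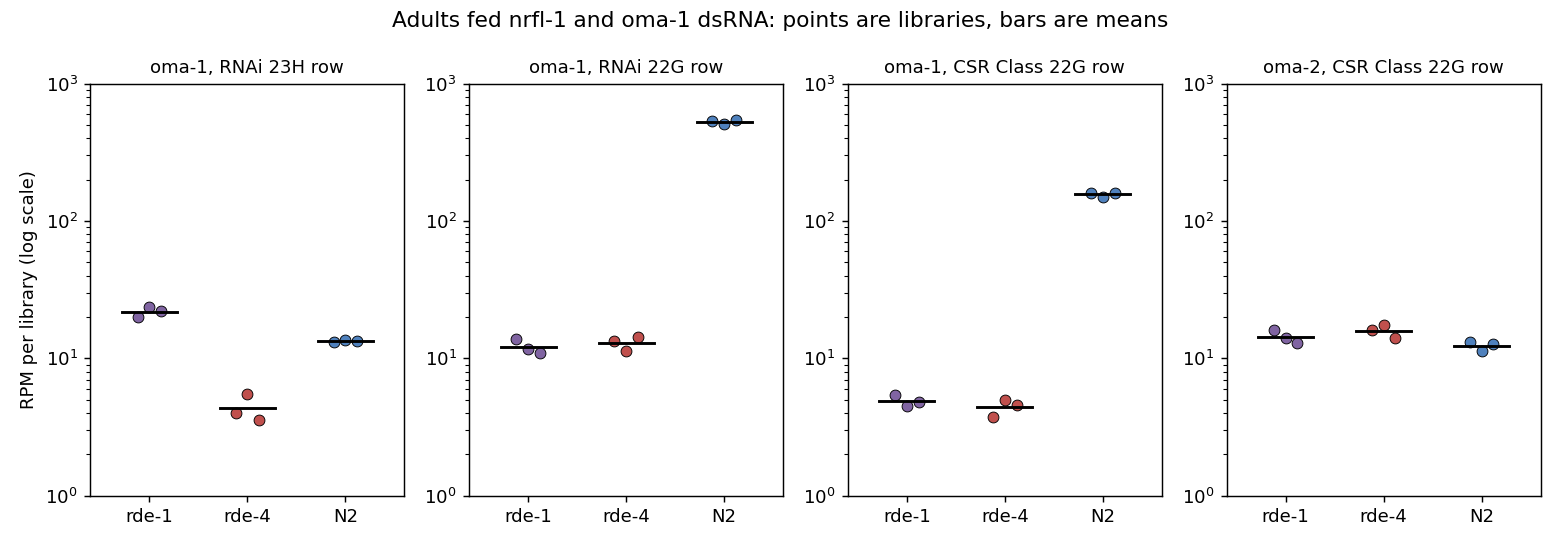
RPM per library on a log axis for the oma-1 23H and 22G rows of the fed target and for the CSR Class 22G rows of oma-1 and oma-2, in adults fed nrfl-1 and oma-1 dsRNA (rde-1, rde-4 and N2, 3 libraries each; bars are means). The N2 libraries stand at 507 to 547 RPM for the oma-1 22G row, above every mutant library, while the oma-2 row lies between 11.3 and 17.4 RPM in all 9 libraries.

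Of the 2694 CSR Class rows tested in adults, the difference of oma-1 was the lowest in rde-1 against N2 adults and in rde-4 against N2 adults. The next lowest was F53H1.3 with -0.52 in rde-1 adults and F27B3.7 with -0.26 in rde-4 adults. The oma-2 row stood on the other side, 122nd from the highest in rde-1 and 38th from the highest in rde-4 adults. The oma-1 row averaged 4.90 RPM in rde-1, 4.43 RPM in rde-4 and 156 RPM in N2 adults. It thus passed the minimum of 10 RPM only through N2, where its dsRNA was fed and effective. Rows near its mutant levels in every group failed that minimum and were not ranked, so its place holds among tested rows only. Ranked by level within the 3608 CSR Class rows, oma-1 was 3154th in rde-1 adults, 3226th in rde-4 adults and 76th in N2 adults. The level ranks of oma-2 were 2276th, 2259th and 2418th in the same groups. By transcript length, the CSR Class level was 2.72 RPM per kb for oma-1 and 9.29 RPM per kb for oma-2 in rde-1 adults, 2.46 and 10.3 RPM per kb in rde-4 adults, and 86.7 and 8.01 RPM per kb in N2 adults. Per kb, oma-1 was thus below oma-2 in the mutants and above it in N2.

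**Figure D2:**
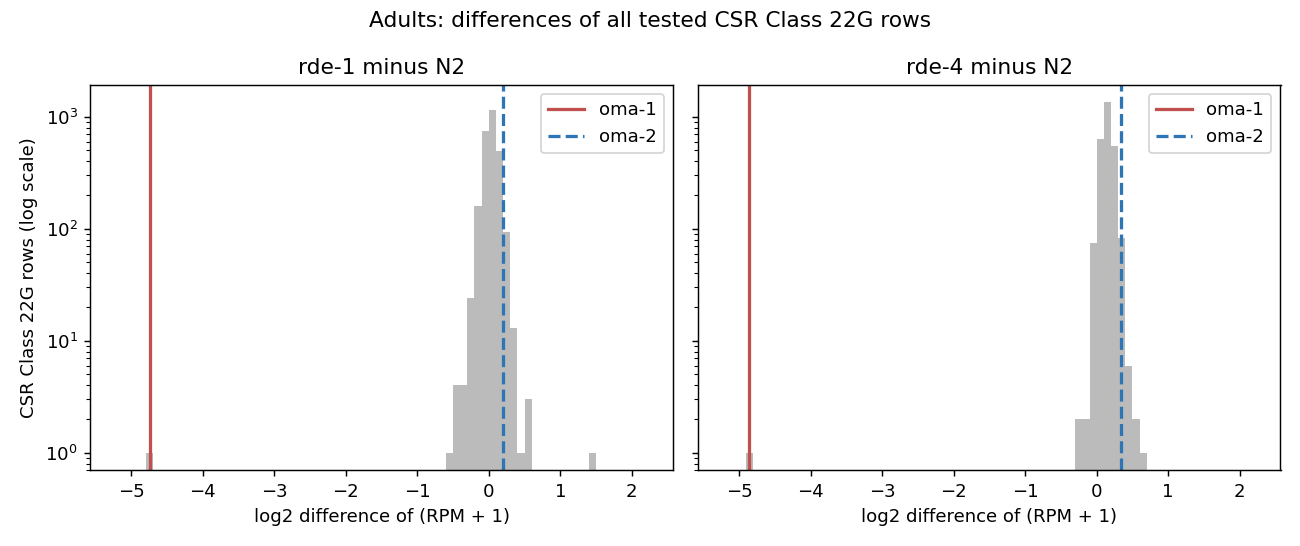
Histograms (log count axis) of the log2 differences of all 2694 tested CSR Class 22G rows, for rde-1 minus N2 and rde-4 minus N2 adults, with oma-1 (solid line) and oma-2 (dashed line) marked. The oma-1 row stands alone at -4.74 and -4.86, and the oma-2 row, at 0.20 and 0.33, lies among the higher rows of the class, 122nd and 38th from the highest.

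A ratio taken within a library needs no scaling between libraries. The CSR Class value of oma-1 divided by that of oma-2 was 0.342 ± 0.024 in rde-1 adults, 0.280 ± 0.048 in rde-4 adults and 12.6 ± 0.55 in N2 adults (SD, n = 3 each). In L4 larvae, which had no dsRNA, it was 0.438 ± 0.050 in rde-4 and 0.447 ± 0.081 in N2 (SD, n = 3 each). The unfed larvae of both genotypes and the fed mutant adults thus had less oma-1 than oma-2, and the fed N2 adults had more. Larvae and adults differ in stage as well as in feeding, which cannot be told apart. On the log2 scale of (RPM + 1), the ratio was lower by -4.93 in rde-1 and by -5.2 in rde-4 adults against N2 adults. A two-sided exact permutation test gave p = 0.1 for each, the smallest that 3 against 3 libraries allow, and a BH-adjusted p of 0.26 over the 13 comparisons of this ratio. The ratio in rde-4 larvae differed from that in N2 larvae by -0.06, within the spread of the libraries (exact permutation p = 0.8).

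The ratio was also taken in the RDE-1 libraries. Under nrfl-1 and oma-1 RNAi, the ratio was 0.225 and 0.194 in rde-4 mutant inputs, against 3.71 and 3.54 in wild-type inputs (exact permutation p = 0.333, the smallest that 2 against 2 allow). Under nrfl-1 RNAi alone, it was 0.272 to 0.787 in rde-4 mutant inputs and 0.149 to 0.5 in wild-type inputs, which overlap (log2 difference -0.08, exact permutation p = 0.7). In the co-IPs of the fed set it was 0.322 and 0.189 in the mutant, against 3.68 and 10.46 in the wild type. In the dcr-1 set, which had no oma-1 dsRNA, it was 0.395, 0.312 and 1.36 in dcr-1 RNAi inputs and 0.333, 0.231 and 0.92 in L4440 inputs, so 1 of these unfed inputs was above 1 and the groups overlapped (log2 difference -0.09, exact permutation p = 0.9). The ratios under nrfl-1 RNAi alone rest on values under 1 RPM. Those of the dcr-1 set rest on oma-1 values under 1 RPM, and in the library at 1.36 oma-2 was under 1 RPM as well.

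Between co-IP and input the ratio was compared on the log2 scale of (RPM + 1), since oma-2 was listed at 0 in some co-IPs. Without oma-1 dsRNA most values were under 1 RPM, where the added 1 draws the log2 ratio of a depleted library toward 0. A higher value in co-IPs there cannot show that oma-1 was kept over oma-2. As a plain ratio it was defined in 1 wild-type co-IP under nrfl-1 RNAi, at 0, against 0.149 to 0.5 in inputs. Under L4440 the plain ratio was 0.952 and 1.29 where defined in co-IPs, against 0.231 to 0.92 in inputs. On the log2 scale, each co-IP library was above each input library of its group under nrfl-1 RNAi and L4440. The mean difference was 0.65 in the mutant and 0.34 in the wild type under nrfl-1 RNAi, and 0.41 under L4440 (exact permutation p = 0.1 for each, the smallest possible, and 0.26 after BH adjustment over the 13 comparisons). Under dcr-1 RNAi the difference was 0.11, with overlap (exact permutation p = 0.8). In the fed set it was 0.61 in the mutant (exact permutation p = 0.333, the smallest possible) and 0.45 in the wild type (p = 1).

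**Figure D3:**
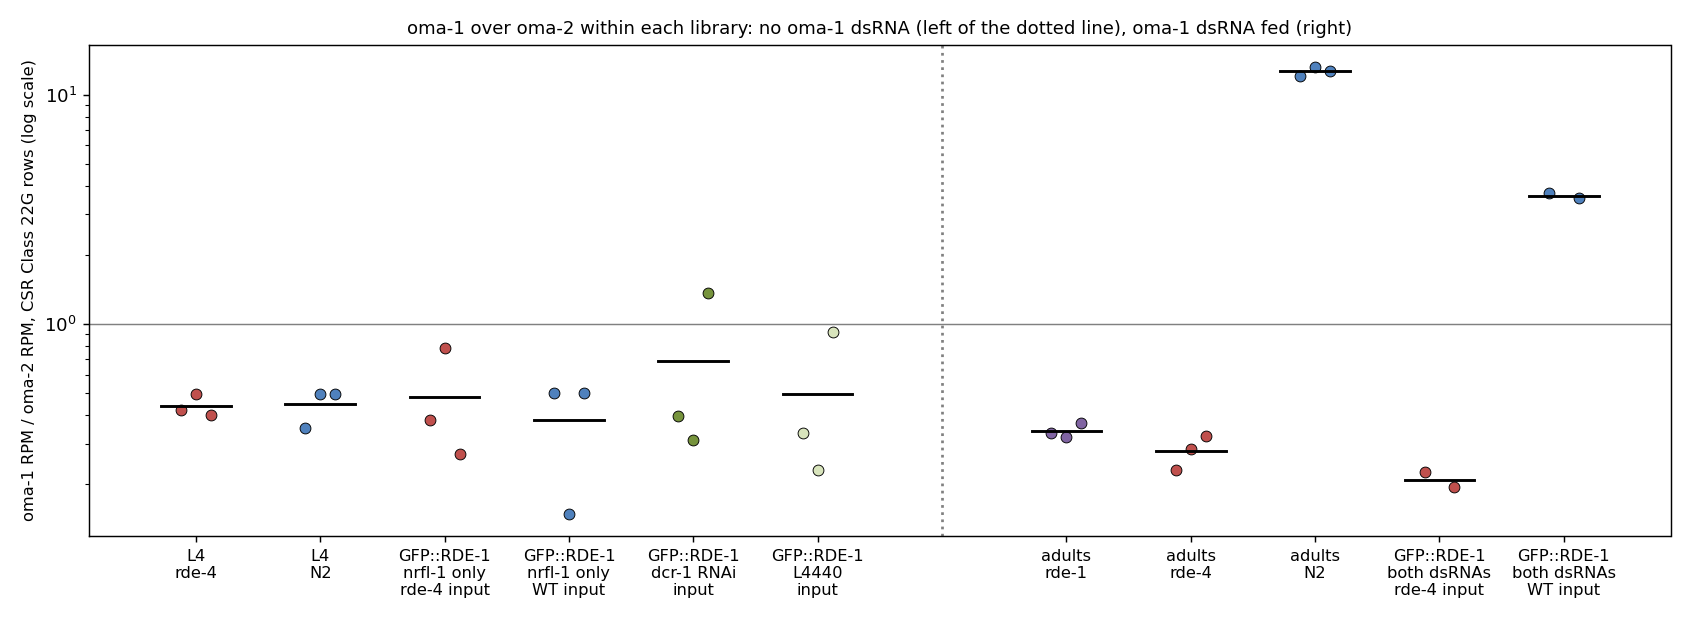
Within-library ratio of the oma-1 to the oma-2 CSR Class 22G row on a log axis, for libraries without oma-1 dsRNA left of the dotted line and with it on the right (points are libraries, bars are means). N2 adults at 12.1 to 13.2 and wild-type GFP::RDE-1 inputs at 3.54 to 3.71 have every library above 1. Of the other plotted libraries, 1 dcr-1 RNAi input at 1.36 is above 1, with both rows under 1 RPM.

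In larvae without dsRNA both genes had few 22G-RNAs, below the 10 RPM needed for the main test. The oma-1 CSR Class row held 2.35, 2.15 and 2.15 RPM in rde-4 larvae and 1.71, 1.98 and 1.81 RPM in N2 larvae, without overlap. The oma-2 row held 5.58, 4.35 and 5.39 RPM in rde-4 larvae and 4.85, 4.02 and 3.66 RPM in N2 larvae, with overlap. A two-sided exact permutation test gave p = 0.1 for oma-1, the smallest for 3 against 3, and p = 0.2 for oma-2. With the minimum lowered to a mean of 1 RPM, limma gave a difference of 0.18 ± 0.13 for oma-1 (BH-adjusted p = 0.305) and 0.24 ± 0.14 for oma-2 (0.205), where 29.4% of 11287 features were called. Both differences were near the general shift: among rows of 10 RPM or more, the median was 0.19 for the CSR Class and 0.16 for all features.

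The 22G and 23H rows of the fed target set its 22G-RNAs beside its primary siRNAs. The 22G row need not hold secondary siRNAs of feeding alone. Unfed larvae also had oma-1 22G-RNAs, with a mean CSR Class level of 1.83 RPM in N2 and 2.22 RPM in rde-4. How much of the low 22G rows of the mutants came from feeding was not tested, so the mutant ratios are not secondary per primary siRNA. The 23H row of oma-1 held 19.9, 23.6 and 22.1 RPM in rde-1 adults, 3.97, 5.51 and 3.53 RPM in rde-4 adults, and 13.2, 13.5 and 13.5 RPM in N2 adults, so the groups did not overlap. The ratio of 22G to 23H reads of oma-1 was 0.561 ± 0.115 in rde-1 adults, 3.15 ± 1.01 in rde-4 adults and 39.5 ± 1.7 in N2 adults (SD, n = 3 each). For nrfl-1, the gene targeted in the same animals, it was 0.107 ± 0.036 in rde-1 adults, 7.31 ± 1.13 in rde-4 adults and 36.4 ± 2.1 in N2 adults (SD, n = 3 each). In these adults the targets thus stood close together in N2 and apart in the mutants, oma-1 above nrfl-1 in rde-1 and below it in rde-4. Each of the 6 adult contrasts gave an exact permutation p of 0.1, the smallest possible, with 0.133 after BH adjustment over 8 comparisons.

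The fed-target 23H and 22G rows of oma-1 were also set against those of nrfl-1. The ratio of oma-1 to nrfl-1 23H reads was 0.0392 ± 0.0013 in rde-1, 0.0438 ± 0.0071 in rde-4 and 0.0511 ± 0.0009 in N2 adults (SD, n = 3 each). The same ratio for 22G reads was 0.213 ± 0.033 in rde-1, 0.0182 ± 0.0019 in rde-4 and 0.0556 ± 0.0037 in N2 adults (SD, n = 3 each). The 23H ratios of all 9 libraries lay between 0.0360 and 0.0520, while the 22G ratios ran from 0.0164 in an rde-4 library to 0.251 in an rde-1 library. The CSR Class and fed-target rows of oma-1 22G-RNAs also moved together: the first was 0.405 ± 0.031 of the second in rde-1, 0.347 ± 0.083 in rde-4 and 0.295 ± 0.003 in N2 adults. These rows may count the same reads. The ALG target row of oma-1 was identical to its CSR Class row in every library, as in all 292 genes that had both rows in the adult table, so it adds no separate measurement.

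In the GFP::RDE-1 co-IP under nrfl-1 and oma-1 RNAi, primary oma-1 siRNAs were recovered with RDE-1 mainly where RDE-4 was intact, and 22G-RNAs of both genes were depleted. The 23H row held 54.9 and 11.7 RPM in rde-4 mutant co-IPs and 4.76 and 15.5 RPM in their inputs, against 1207 and 2130 RPM in wild-type co-IPs and 10.99 and 12.18 RPM in their inputs. In the mutant, co-IP and input overlapped, and in the wild type they were far apart. Of the 4 rows tested in that set, 1 (23H) was higher and 3 were lower in the co-IP of each strain. The lower rows include the CSR Class row of oma-1 and its copy. Of all features, 2.9% were higher and 92.5% lower in the mutant, and 4% higher and 95.1% lower in the wild type. For the 23H row, co-IP over input was a log2 difference of 1.45 ± 0.42 in the mutant (limma, BH-adjusted p = 0.00151) and 7.0 ± 0.42 in the wild type (8.93e-16). The mutant enrichment rests on single libraries: it was 0.39 (adjusted p = 0.54) without mutant co-IP replicate 1 and 0.70 (0.0584) without mutant input replicate 1. The enrichments differed by -5.54 ± 0.59 (limma, BH-adjusted p = 5.32e-09), in a comparison where 3.29% of 4372 features were called (61 higher and 83 lower, or 35 and 79 with median-of-ratios scaling). With no filter on low rows its adjusted p was 0.0612, and that of the mutant enrichment 0.204. For the nrfl-1 23H row that difference was -5.69 ± 0.58, and for the inputs of oma-1 alone, mutant against wild type, it was -0.37 ± 0.42 (adjusted p = 1).

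The 22G rows of both genes went the other way. The oma-1 fed-target 22G row held 4.14 and 2.12 RPM in mutant co-IPs and 10.2 and 9.81 RPM in mutant inputs, against 39.6 and 33.5 RPM in wild-type co-IPs and 120 and 130 RPM in wild-type inputs. The oma-2 CSR Class row held 4.84 and 3.49 RPM in mutant co-IPs and 13.3 and 13.4 RPM in mutant inputs, against 3.42 and 1.73 RPM in wild-type co-IPs and 10.4 and 11.7 RPM in wild-type inputs. The oma-1 CSR Class row held 1.56 and 0.66 RPM in mutant co-IPs and 3 and 2.59 RPM in mutant inputs, against 12.6 and 18.1 RPM in wild-type co-IPs and 38.7 and 41.3 RPM in wild-type inputs. In each strain the co-IP stood below the input for both genes, and the mutant stood below the wild type for oma-1 and not for oma-2.

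In RPM, the oma-1 22G row was lower in the co-IP by -1.46 ± 0.30 in the mutant (limma, BH-adjusted p = 3.84e-05) and by -1.75 ± 0.30 in the wild type (1.81e-06). Such depletion was general: 95.4% of features were called in the mutant and 99.1% in the wild type, with medians over all features of -1.56 and -2.13. Median-of-ratios scaling sets that median to about 0 and calls 360 features higher and 42 lower in the mutant and 475 higher and 189 lower in the wild type. With it the oma-1 22G row was at -0.06 in the mutant and, with the direction turned, at 0.51 in the wild type (adjusted p = 0.0335). The CSR Class row of oma-1 was lower in RPM by -0.88 ± 0.33 in the mutant (limma, BH-adjusted p = 0.0129) and -1.35 ± 0.33 in the wild type (0.000284), and under that scaling stood at 0.14 and 0.86. Both oma-1 22G rows passed the mean minimum only through the wild type. The CSR Class row averaged 1.11 RPM in mutant co-IPs and 2.8 RPM in mutant inputs, and the fed-target row 3.13 and 10.0 RPM. The mutant call of the CSR Class row was lost without mutant co-IP replicate 2 (-0.57, adjusted p = 0.0514) and without mutant input replicate 1 (-0.80, 0.0925). The difference between strains was 0.29 ± 0.42 for the fed-target 22G row (limma, BH-adjusted p = 0.57) and 0.47 ± 0.47 for the CSR Class row (0.441), and without mutant co-IP replicate 2 both were called (0.65, adjusted p = 0.0226, and 0.78, 0.0491), where 3561 of all features were called. The oma-2 row did not reach a mean of 10 RPM. At a mean of 1 RPM its co-IP was lower by -1.49 ± 0.31 in the mutant (limma, BH-adjusted p = 0.000478; 86.3% of features called) and -1.79 ± 0.31 in the wild type (6.05e-05; 95.3%), and the difference between strains was 0.31 ± 0.43 (0.645; 4.37%).

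Between inputs of that set, oma-1 22G-RNAs were lower in the rde-4 mutant by -3.51 ± 0.30 for the fed-target row (limma, BH-adjusted p = 1.99e-11) and -3.43 ± 0.33 for the CSR Class row (3.85e-10). There 4.87% of features were called and 3 of the 4 tested rows were lower, among them the CSR Class row and its copy. The oma-2 row differed by 0.25 ± 0.31 at a mean of 1 RPM (adjusted p = 1; 3.43% of features called). The ratio of 22G to 23H reads of oma-1 was 2.15 and 0.634 in mutant inputs, against 10.9 and 10.7 in wild-type inputs (exact permutation p = 0.333, the smallest possible). That of nrfl-1 was 8.03 and 2.09 in mutant inputs, against 28.3 and 29.4 in wild-type inputs, so the targets were apart in the wild type here, unlike in N2 adults.

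**Figure D4:**
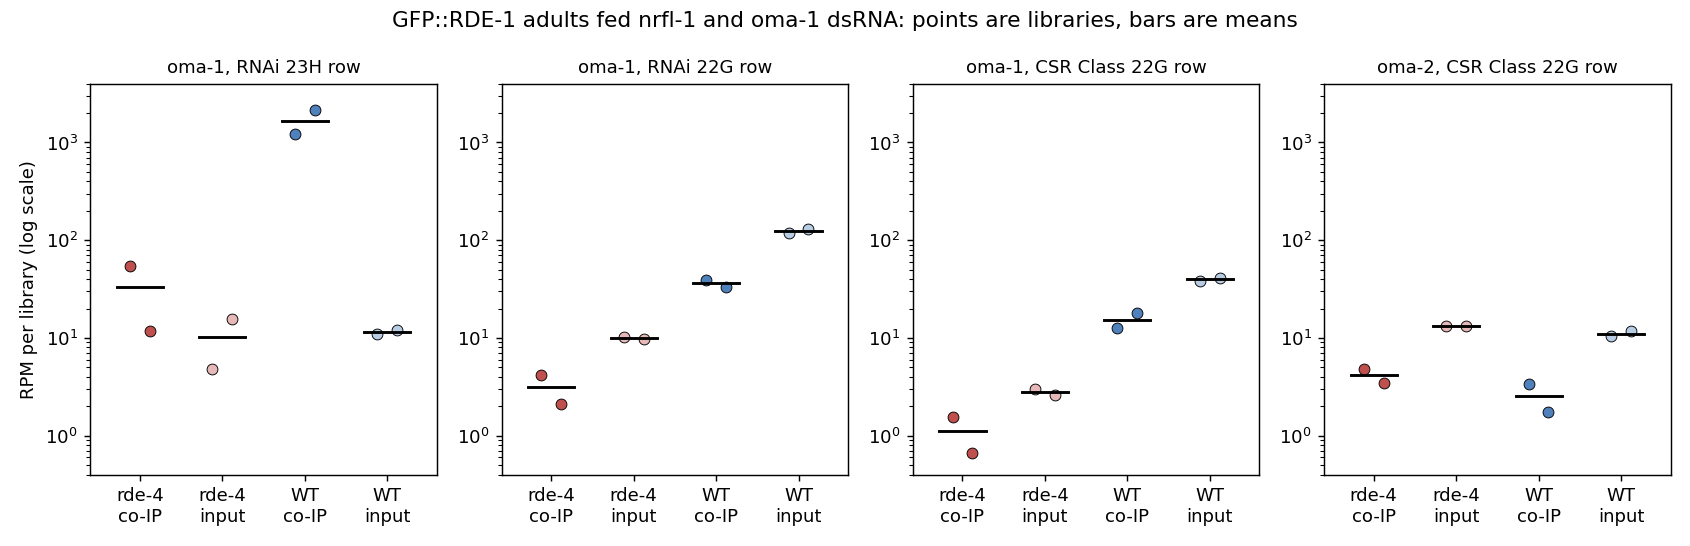
RPM per library on a log axis in GFP::RDE-1 animals fed nrfl-1 and oma-1 dsRNA, for co-IP and input of the rde-4 mutant and of the wild type (2 libraries each; bars are means). The oma-1 23H row reaches 1207 and 2130 RPM in wild-type co-IPs only, while both oma-1 22G rows and the oma-2 row are lower in co-IP than in input.

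In the sets without oma-1 dsRNA whose labels do not name RppH, the CSR Class rows of both genes were low, at 2.21 RPM or less, where 3 reads were worth 0.081 to 0.244 RPM. Under nrfl-1 RNAi alone, the oma-1 row held 0.22, 0.37 and 0.22 RPM in rde-4 mutant inputs and 0.14, 0.07 and 0.14 RPM in wild-type inputs. The oma-2 row held 0.58, 0.47 and 0.81 RPM in mutant inputs and 0.28, 0.47 and 0.28 RPM in wild-type inputs, and it was listed at 0 in all 3 mutant co-IPs and in 2 of 3 wild-type co-IPs. So oma-1 did not overlap between the inputs, and oma-2 met at 0.47 RPM. The whole CSR Class stood higher as well, with a total of 8478 to 12835 RPM in mutant inputs and 4191 to 6182 RPM in wild-type inputs. An exact permutation test gave p = 0.1 for oma-1, the smallest possible, and p = 0.2 for oma-2. In the co-IPs oma-1 held 0.31, 0.30 and 0.09 RPM in the mutant and 0.13, 0 and 0.12 RPM in the wild type, and each strain's range overlapped that of its inputs. Same-numbered wild-type libraries of that set deviated together, and there the oma-2 row was lower in the co-IP than in the input of the same number in all 3 pairs. The oma-1 row was too, but by less than 3 reads, which were worth 0.1155 to 0.1683 RPM in that set. Its pairs were 0.13 against 0.14, 0 against 0.07 and 0.12 against 0.14 RPM. Those differences are within counting error (unpaired exact permutation p = 0.5). Of 483 features tested in that set, 289 were lower and 103 higher in wild-type co-IPs than in inputs.

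Under dcr-1 RNAi, which targets Dicer, the oma-1 row held 0.51, 0.69 and 0.94 RPM in inputs, against 0.10, 0.28 and 0.23 RPM in L4440 inputs, without overlap (exact permutation p = 0.1, the smallest possible). The oma-2 row held 1.29, 2.21 and 0.69 RPM in dcr-1 RNAi inputs, against 0.30, 1.21 and 0.25 RPM in L4440 inputs, with overlap (exact permutation p = 0.2). All CSR Class rows together were 7787 to 10220 RPM in dcr-1 RNAi inputs and 3466 to 6185 RPM in L4440 inputs, so the whole class stood higher. In the co-IPs of that set oma-1 held 0.25, 0.20 and 0.02 RPM under dcr-1 RNAi and 0.09, 0.20 and 0.11 RPM under L4440, and oma-2 held 0.30, 0.59 and 0.47 RPM under dcr-1 RNAi and 0.07, 0.21 and 0 RPM under L4440. Each oma-2 co-IP value under dcr-1 RNAi was below the lowest oma-2 input value under dcr-1 RNAi. Such depletion was general there: of 2516 features tested, 2287 were lower and 157 higher in the co-IP. Neither gene has a 23H row in that set. In HA::ALG-1 animals oma-2 held 0.49, 1.05 and 0.57 RPM in rde-4 mutant inputs and 0.41, 0.59 and 0.70 RPM in wild-type inputs. It was listed at 0 in all 3 mutant co-IPs and in 2 of 3 wild-type co-IPs, with 0.05 RPM in the other. ALG-1 is an Argonaute of miRNAs. In each strain every oma-2 co-IP value was below every input value (exact permutation p = 0.1 for each, the smallest possible). Most features went that way: of 658 tested, 578 were lower and 40 higher in mutant co-IPs, and 564 lower and 49 higher in wild-type co-IPs.

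The 26G-RNAs of oma-1, antisense to the message, were scarce, and oma-2 had no row of that class. In larvae the row held 0.15, 0 and 0 RPM in rde-4 and 1.07, 1 and 0.87 RPM in N2, without overlap (exact permutation p = 0.1, the smallest possible). The class as a whole held 385 to 526 RPM in rde-4 larvae, against 8667 to 9224 RPM in N2 larvae. In N2 larvae the oma-1 row ranked 1244th of 1399, so it was a minor member.

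Fed adults differed in this. The oma-1 26G row held 0.28, 0.19 and 0.09 RPM in rde-1 adults, 0.19, 0.06 and 0.05 RPM in rde-4 adults, and 0.80, 0.40 and 0.70 RPM in N2 adults. Both mutants lay below N2 without overlap (exact permutation p = 0.1 for each, the smallest possible), and 3 of the 6 mutant values were under the value of 3 reads, which was 0.133 to 0.173 RPM in adults. The row ranked 57th of 1399 in rde-1 adults, 56th in rde-4 adults and 2nd in N2 adults, although its level in N2 adults was no higher than in N2 larvae. The class total in adults was 75.2 to 92.4 RPM in rde-1, 31 to 35.5 RPM in rde-4 and 41.4 to 50.2 RPM in N2, so the low oma-1 value in rde-1 adults came with a higher class total. In the other set fed oma-1 dsRNA the row was listed at 0 in 7 of 8 libraries and at 0.10 RPM in 1 wild-type input. Under nrfl-1 RNAi alone it was listed at 0 in 11 of 12 libraries, and in the dcr-1 set in 10 of 12, with no value above 0.14 RPM.

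In the GFP::ALG-3 co-IP the oma-1 26G row held 6.12 and 2.42 RPM in rde-4 mutant co-IPs and 1.36 and 1.47 RPM in their inputs, against 39.5 and 35.3 RPM in wild-type co-IPs and 5.37 and 5.62 RPM in their inputs. Each co-IP library was above each input library of its strain. The row passed the minimum mean of 10 RPM only through the wild-type co-IPs, where it was high. The limma p-values that follow are therefore those of a row let in by that group. In RPM the enrichment was 1.03 ± 0.31 in the mutant (limma, BH-adjusted p = 0.00517; 89.8% of 1101 features called) and 2.56 ± 0.31 in the wild type (6.42e-07; 99.7%). The difference between strains was -1.53 ± 0.43 (adjusted p = 0.00523; 82.3%), and the mutant inputs were lower by -1.43 ± 0.31 (0.000349; 97.5%).

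The rest of the class moved the same way. The median of all 26G rows was 1.59 in the mutant co-IP, 2.96 in the wild-type co-IP, -1.35 for the difference and -2.29 between inputs. Set relative to that median by median-of-ratios scaling, the sign of the oma-1 enrichment turned, to -0.68 in the mutant (adjusted p = 0.126) and -0.27 in the wild type (0.621). The difference became -0.41 (0.607), and the inputs turned to 0.94 (0.0452). Higher and lower features then numbered 258 and 267 in the mutant co-IP, 105 and 128 in the wild-type co-IP, 69 and 128 for the difference and 265 and 222 between inputs. Without mutant co-IP replicate 1, the mutant enrichment in RPM was 0.50 (adjusted p = 0.0575).

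**Figure D5:**
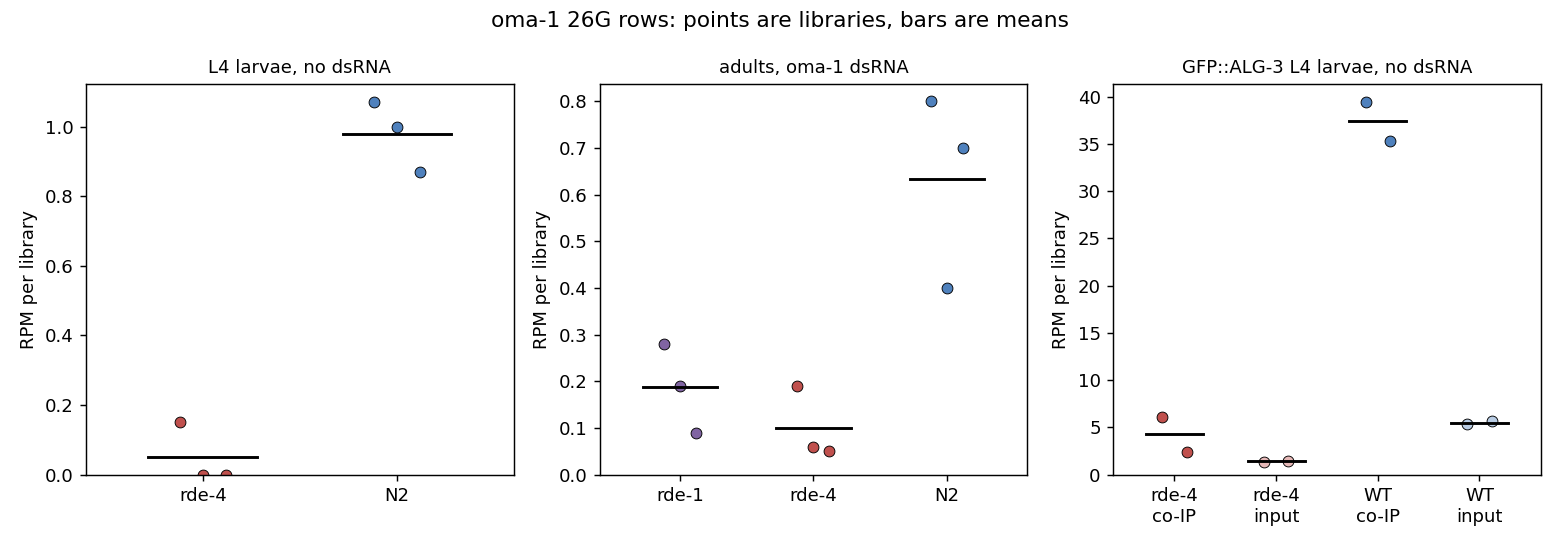
RPM per library of the oma-1 26G rows (linear axes from 0) in L4 larvae, in adults fed oma-1 dsRNA, and in GFP::ALG-3 co-IPs and inputs (points are libraries, bars are means). N2 stands above the mutants in larvae and adults, and wild-type ALG-3 co-IPs at 35.3 and 39.5 RPM stand above the 3 other groups.

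None of the related genes tested was called lower beside oma-1 in fed adults, apart from 1 sperm gene in rde-1. Of a list of 12 CCCH zinc-finger relatives (among them mex-5, pos-1 and pie-1, which pattern the early embryo), 7 were tested, and 0 were called by limma in rde-1 against N2 adults, with a median difference of -0.08 (all features: 0.01). At an unadjusted p under 0.05 the count was also 0. Of 35 regulators of oocytes and early embryos, 30 were tested and 0 were called there by limma, with a median of 0.03, while 5 were higher at an unadjusted p under 0.05 and 0 were lower, and 2 were called without N2 replicate 3. Of all features, 15.5% were called in that comparison. In rde-4 against N2 adults, 1 CCCH relative (ccch-3, 0.23 ± 0.07, limma BH-adjusted p = 0.0249) and 18 regulators were higher and 0 were lower, also at an unadjusted p under 0.05, with medians of 0.17 and 0.16 (all features: 0.11; 34.1% called). Those with the largest differences were mbk-2, a kinase that marks OMA-1 for removal (0.38 ± 0.08, limma BH-adjusted p = 0.00737), mex-3, an RNA-binding protein of the early embryo (0.30 ± 0.08, 0.0148), and spn-4, another such protein (0.30 ± 0.05, 0.00123). The oma-2 difference of 0.33 lay between those of mbk-2 and mex-3. The count of 18 regulators rests on the scale: it was 1 with median-of-ratios scaling, 11 with no filter and 10 without N2 replicate 1, and the ccch-3 call was lost in those 3 settings and without rde-4 replicate 3.

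In rde-4 larvae 1 of 6 tested CCCH relatives (gla-3, 0.25) and 11 of 25 tested regulators were higher and 0 were lower (34.6% of all features called, 27.8% higher and 6.74% lower), led by mex-3 (0.40), cdk-1 (0.39), the kinase of the M phase, and cpb-3 (0.38), an RNA-binding protein of the germ line. With median-of-ratios scaling these counts were 0 and 2 (all features: 252 higher and 441 lower), and the 11 regulators came to 5, 6 and 7 without N2 replicate 2, N2 replicate 3 and rde-4 replicate 3 in turn. The gla-3 call was lost without any 1 of 5 of the 6 libraries. Of 21 sperm genes, few had 22G-RNAs enough to test. Of 2 tested in adults, spe-41, a sperm calcium channel, was lower in rde-1 by -0.32 (limma, BH-adjusted p = 0.0116; not called without N2 replicate 2) and higher in rde-4 by 0.35 (0.00583; not called with median-of-ratios scaling), against N2. Of 4 tested in larvae, fer-1 (0.57) and spe-41 (0.29) were higher and ssp-16 (-0.82) was lower in rde-4. In the RDE-1 co-IP with oma-1 RNAi, 6 of 6 tested CCCH relatives and 26 of 26 regulators were lower than in input in each strain, like nearly all features.

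The genes next to oma-1 and oma-2 give a local check. The gene 462 nt downstream of oma-1, spr-2, held 16.6 ± 1.0 RPM in rde-1, 17.6 ± 1.2 RPM in rde-4 and 16.8 ± 2.1 RPM in N2 adults (SD, n = 3 each), and it was called in neither comparison with N2 (limma, BH-adjusted p = 0.946 and 0.583). The gene downstream of oma-2, vars-1, a valyl-tRNA synthetase, held 28.4 ± 1.3 RPM in rde-1, 32.6 ± 0.9 RPM in rde-4 and 27.7 ± 2.2 RPM in N2 adults (SD, n = 3 each). It was higher in rde-4 than in N2 adults by 0.23 (limma, BH-adjusted p = 0.0215), and like oma-2 lost its call with median-of-ratios scaling (0.13, adjusted p = 0.26), without N2 replicate 2 (0.17, 0.0696) and without rde-4 replicate 1 (0.21, 0.0598). The upstream neighbours C09G9.5 and F43H9.4 were not tested.

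Over the 15 libraries of larvae and adults, the CSR Class rows most like oma-2 were lst-6 (Pearson r = 0.991), tre-1 (0.990) and M04F3.5 (0.990), out of 1916 rows compared. The libraries share stage and genotype, so these values describe and carry no p. As an instance, tre-1 held 23.8 RPM in rde-1, 26.8 RPM in rde-4 and 21.9 RPM in N2 adults, and 12.3 RPM in rde-4 and 10.4 RPM in N2 larvae. The oma-1 row was 1839th in likeness to oma-2, with r = 0.449. For oma-1 the highest Pearson r were lower, those of hsr-9 (0.670), bet-2 (0.659) and F27B3.7 (0.644), and oma-2 was 1136th. By Spearman's rank correlation the highest were those of F36H12.2 (0.876), hsr-9 (0.856) and gtbp-1 (0.856). Of these, hsr-9 held 50.1 RPM in rde-1, 53.6 RPM in rde-4 and 57.3 RPM in N2 adults.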

How the data were processed

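Small RNA libraries of whole animals and of Argonaute co-IPs were used, 75 of the 79 that the labels name, in 8 tables. The deposited values are RPM to 2 decimals, made by the authors with tinyRNA, as the series design text states, and its settings and genome build are not given in the sources used here. The ALG-3 table holds 1 class, so its depth is unknown. Intervals of 3 reads cover counting error only.

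Log2(RPM + 1) was computed and fitted with limma 3.58.1 in R 4.3.3 (empirical Bayes with a mean-variance trend, all groups of a table in 1 fit) on rows that averaged 10 RPM or more. Calls used a Benjamini-Hochberg adjusted p under 0.05. A log2 difference on this scale understates changes of low rows. The script was tested on simulated data. Ratios and rows below the filter were compared by exact permutation tests, two-sided, with scipy 1.17.1. Alternatives were other pseudocounts, filters, scalings, fits and left-out libraries. By the labels' replicate numbers, wild-type co-IPs and inputs of the GFP::RDE-1 set under nrfl-1 RNAi alone deviated in pairs (correlations 0.493, 0.289 and 0.285). No row of oma-1 or oma-2 reached the filter there. Median-of-ratios scaling stood in for TMM, and no count model was used, since values are not counts.

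Members and gene lists were chosen with earlier results of these data known. The genes named are all rows of oma-1 and oma-2, nrfl-1 as the other fed target, list members called with up to 3 of the largest differences in each direction, neighbours, and the 3 CSR Class rows most correlated with each gene. Gene structures came from Ensembl's WBcel235 annotation. No sequence was used.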

Additional observations from a re-analysis of the deposited data

Results flagged for a closer look

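The oma-1 23H row differed between strains in its GFP::RDE-1 enrichment, by a log2 difference of -5.54 (rde-4 mutant minus wild type; limma interaction, BH-adjusted p = 5.32e-09, 3.29% of features called). The oma-1 26G row differed between strains in its GFP::ALG-3 enrichment by -1.53 (limma interaction, BH-adjusted p = 0.00523), in a table where 82.3% of features were called and the median difference was -1.35. That row passed the mean minimum only through the wild-type co-IPs.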

How the results depend on the processing

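Called differences of the oma-1 22G rows between adults kept their direction and call under every alternative run. The oma-2 difference between rde-4 and N2 adults, 0.33, lost its call with no filter (0.33, adjusted p = 0.0841) and with median-of-ratios scaling (0.23), and it ran from 0.27 to 0.41 when single libraries were left out. In the RDE-1 set, median-of-ratios scaling gave the co-IP over input differences of the oma-1 fed-target 22G row as -0.059 in the mutant and 0.51 in the wild type, and those of its CSR Class row as 0.14 and 0.86. With no filter, the 23H row missed the call in the mutant (1.45) and for the difference between strains (-5.54, adjusted p = 0.0612), and the mutant value ran from 0.39 to 2.52 without single libraries. The 22G difference between strains was called with pseudocount 10 (0.92), and ran from -0.074 to 0.65 without single libraries. For the ALG-3 26G row, scaling to equal totals gave -0.58 in the mutant, -0.37 in the wild type, -0.20 for the difference and 0.71 between inputs, and median-of-ratios scaling gave -0.68, -0.27, -0.41 and 0.94. Pseudocount 0.1 gave a difference of -1.35 (adjusted p = 0.0637), and the mutant value ran from 0.50 to 1.56 without single libraries.

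The log2 ratio of oma-1 to oma-2 moved with the pseudocount. With 0.1 and 10 it was -5.18 and -3.60 for rde-1 and -5.47 and -3.73 for rde-4 against N2 adults, and -4.07 and -2.12 between the fed RDE-1 inputs. In fed co-IPs against input it was 0.31 in the mutant (0.1) and -0.24 in the wild type (10). Without oma-1 RNAi, co-IP against input gave 2.61 and 0.081 in the mutant, 1.52 and 0.040 in the wild type and 1.35 and 0.058 under L4440, and -0.43 under dcr-1 RNAi (0.1). With pseudocount 10 the log2 ratio of 22G to 23H was -5.05 for rde-1 against N2 and 1.21 for rde-4 against rde-1. The causes were not tested beyond what each alternative's construction shows.

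Outside the wild-type co-IP and input under nrfl-1 RNAi alone, no comparison with 3 pairs had every correlation of same-numbered deviations over 0.1 (adults: -0.47 to 0.19), and those libraries share only a number. The fed inputs, with 2 pairs, gave 0.297. With the replicate number as a block the oma-2 difference was 0.33 (limma, BH-adjusted p = 0.0335), and no call of an oma-1 or oma-2 row changed in the tables where they were tested. By Spearman's rank correlation the row most like oma-2 was catp-8 (0.986), and oma-1 was 1782nd. Sequence shared by the genes was not measured. Depth limits the rows under about 1 RPM.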
